A study of Homo sapiens with 4 samples.

Results

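The genes described here are 38 genes of homologous recombination, of the Fanconi anemia pathway and of the DNA damage checkpoint. They were taken from the deposited count table by the Ensembl gene ID of each listed symbol, and all 38 were found among its 57820 gene IDs and passed the filter on low counts. By role they comprise 12 strand exchange genes, 12 Fanconi genes, 7 checkpoint genes, 4 genes of DNA end resection and 3 genes of junction resolution. The table holds RNA-seq counts from 2 libraries of RB1 KO cells and 2 libraries of wild-type cells, both of the line IMR-90 (fibroblasts of human fetal lung) at confluence. The RB1 KO cells were a pool of puromycin-resistant cells made with a lentiviral Cas9 construct whose guide cuts at the start codon of RB1. Because no wild-type cells are described as transduced and selected, the effects of these steps and of losing RB1 cannot be told apart. The comparison asks how these genes were expressed after loss of RB1 in cells held at confluence.

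Homologous recombination repairs broken DNA by copying the sister chromatid. The broken end is first cut back to a single strand, which, with the help of BRCA1, PALB2 and BRCA2, is then paired with the matching sequence and exchanged. The Fanconi pathway recognizes crosslinks between the strands, marks them by attaching ubiquitin to FANCD2 and FANCI, and hands the opened lesion to nucleases and to recombination. The kinases ATM and ATR report breaks and stalled forks to CHEK2 and CHEK1, which hold the cell cycle. Many genes of these pathways are known as targets of E2F factors, which RB1 represses, and are made mainly from late G1 to G2.

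The promoters of the genes are shown first, because E2F factors bind near the start of transcription. RefSeq promoter windows of 300 bases, from 250 bases before to 50 bases after the start (GRCh38.p14), could be matched by symbol for 35 of the 38 genes, all except RAD54B, FANCI and NBN. An E2F-type motif, searched on both strands as TTTCCCGC, TTTCGCGC, TTTGGCGC or TTTGCCGC, was in 7 of these 35 windows (20%), against 3.33% of all 27305 windows and 4.44% of the 15843 windows of protein-coding genes. The 7 genes were XRCC2, FANCA, FANCC, FANCD2, CLSPN, TOPBP1 and EXO1. The CHR motif of late cell cycle genes, searched as TTTGAA or TTCGAA on both strands, was in 3 windows (8.57%), those of FANCC, BRIP1 and ATM, against 16.6% of all windows. The window of FANCC held both motifs, and in 0 of the 35 windows did a match of one share bases with a match of the other. These are matches of letters, not sites shown to be bound. Below are the 100 bases around the start for the 6 genes with an E2F-type match inside them, from the coding strand, with the match in capitals, so that its place can be compared between genes.
FANCD2: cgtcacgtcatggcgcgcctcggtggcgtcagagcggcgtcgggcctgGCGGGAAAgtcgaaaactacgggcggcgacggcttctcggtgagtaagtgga
EXO1: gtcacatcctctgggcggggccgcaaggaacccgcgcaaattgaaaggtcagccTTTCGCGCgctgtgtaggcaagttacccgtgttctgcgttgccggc
TOPBP1: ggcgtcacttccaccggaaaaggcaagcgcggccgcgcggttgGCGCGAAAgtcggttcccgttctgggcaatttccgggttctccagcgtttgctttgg
CLSPN: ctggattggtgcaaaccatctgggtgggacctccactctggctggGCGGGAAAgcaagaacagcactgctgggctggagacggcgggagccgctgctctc
XRCC2: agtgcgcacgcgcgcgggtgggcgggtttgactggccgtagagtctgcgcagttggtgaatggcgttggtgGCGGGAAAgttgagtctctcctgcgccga
FANCC: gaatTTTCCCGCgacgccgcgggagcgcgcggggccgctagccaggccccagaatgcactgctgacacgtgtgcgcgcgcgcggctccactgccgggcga

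The printed windows lie at chr3:10026387-10026486 (plus strand) for FANCD2 and chr1:241848154-241848253 (plus strand) for EXO1. Those of TOPBP1 and CLSPN lie at chr3:133661892-133661991 and chr1:35769929-35770028 (both minus strand). Those of XRCC2 and FANCC lie at chr7:152676092-152676191 and chr9:95317660-95317759 (both minus strand). With the first transcribed base counted as 1 and no base 0, the match ran from base -2 to 6 in FANCD2, from 5 to 12 in EXO1, from -7 to 1 in TOPBP1 and from -5 to 3 in CLSPN. It ran from 22 to 29 in XRCC2 and from -46 to -39 in FANCC. Among the 6 genes, the match thus lay on or within 12 bases of the start in 4.

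The libraries held 33480111 and 34247292 counts in genes for RB1 KO cells and 32827737 and 30873239 for wild-type cells. The smallest count of any of the 38 genes in a library was 60 and the largest 3580. RB1 itself was at 85.3 and 78.98 CPM (counts scaled by library size with TMM factors) in RB1 KO cells, against 76.5 and 75.2 CPM in wild-type cells. This was a log2 fold change of 0.12, with an adjusted p of 0.507 (Benjamini-Hochberg, from the quasi-likelihood test of edgeR). Counts over the whole gene do not check an edit at the start codon, so the genotype is taken here as labelled. The paper checked the disruption of RB1 at the protein level, by Western blot. All 10 fibroblast markers were expressed and had positive log2 fold changes (median 0.29, 1 called higher, LUM, and 4 higher at an unadjusted p under 0.05), and the endothelial CDH5, the epithelial CDH1 and KRT5 and the immune CD3E were at 0 in every library. The endothelial markers together were at 188 and 161 CPM in RB1 KO cells, against 124 and 126 CPM in wild-type cells (4 of 8 tested, 2 called higher), of which TEK alone gave 180 and 155 CPM, against 120 and 122 CPM, and the epithelial markers at 31.8 and 40.0 CPM, against 53.7 and 41.3 CPM (4 of 10 tested, 0 called, 1 lower at an unadjusted p under 0.05). The immune markers together were at 0.548 and 0.631 CPM in RB1 KO cells, against 0.33 and 0.691 CPM in wild-type cells. Only CD14 of the 8 was tested, and it was not called (log2 fold change 1.78, unadjusted p = 0.011, adjusted p = 0.177 from edgeR). CD14 counts were low, at 11 and 14 in the RB1 KO libraries and 3 and 4 in the wild-type libraries. The part of these markers in the values below was not tested. The libraries were directional, but the sources do not say which strand was counted, and 26 of the 38 genes share exon positions with an annotated gene on the opposite strand (FANCD2 with FANCD2OS, for example), whose reads may be included. Whether the replicates were separate cultures is not stated, so the p-values cover only the spread among the libraries, and that may be technical.

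None of the 38 genes passed the test between RB1 KO and wild-type cells. With edgeR and a threshold of 0.1 on the adjusted p over 16426 genes, 0 were higher, against 1.99% of all genes tested (327), and 0 lower, against 0.907% (149), or 2.9% in either direction. DESeq2 and limma-voom also called 0. The smallest adjusted p was 0.144. At an unadjusted p under 0.05, edgeR gave 11 genes lower (28.9%) and 0 higher, against 7.16% lower and 8.16% higher among all genes. By the same measure DESeq2 gave 6 lower, with 579 of the 16426 genes lower, and limma-voom 11, with 1171 lower. By role DESeq2 gave 2 strand exchange, 2 Fanconi, 0 checkpoint, 1 resection and 1 resolution gene. The log2 fold change of RB1 KO over wild-type cells was negative for 32 of 38 genes (84.2%), against 51.7% of all genes, and the median was -0.17, against -0.01 for all genes. Both RB1 KO libraries lay below both wild-type libraries for 21 genes (55.3%), against 24.3% of all genes, and above them for 1, NBN, against 22.5% of all genes. Under TMM scaling, the 95% interval of the log2 fold change stayed above -1 for all 38 genes. The lowest bound was -0.83 in BLM and the highest bound 0.59 in RAD54B. Standard errors ran from 0.0717 in RAD50 to 0.222 in RAD54B. Scaled to the spiked-in ERCC RNAs instead, the median of all genes was -0.49 and that of the 38 genes -0.66, and 11 genes of the whole table were called higher and 168 lower, of which 0 were among the 38. The ERCC share of gene counts was 0.207 and 0.21% in RB1 KO cells and 0.187 and 0.135% in wild-type cells (replicate 1, then 2). It was thus lowest in wild-type replicate 2, and ERCC scaling without that library was not tested.

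**Figure D1:**
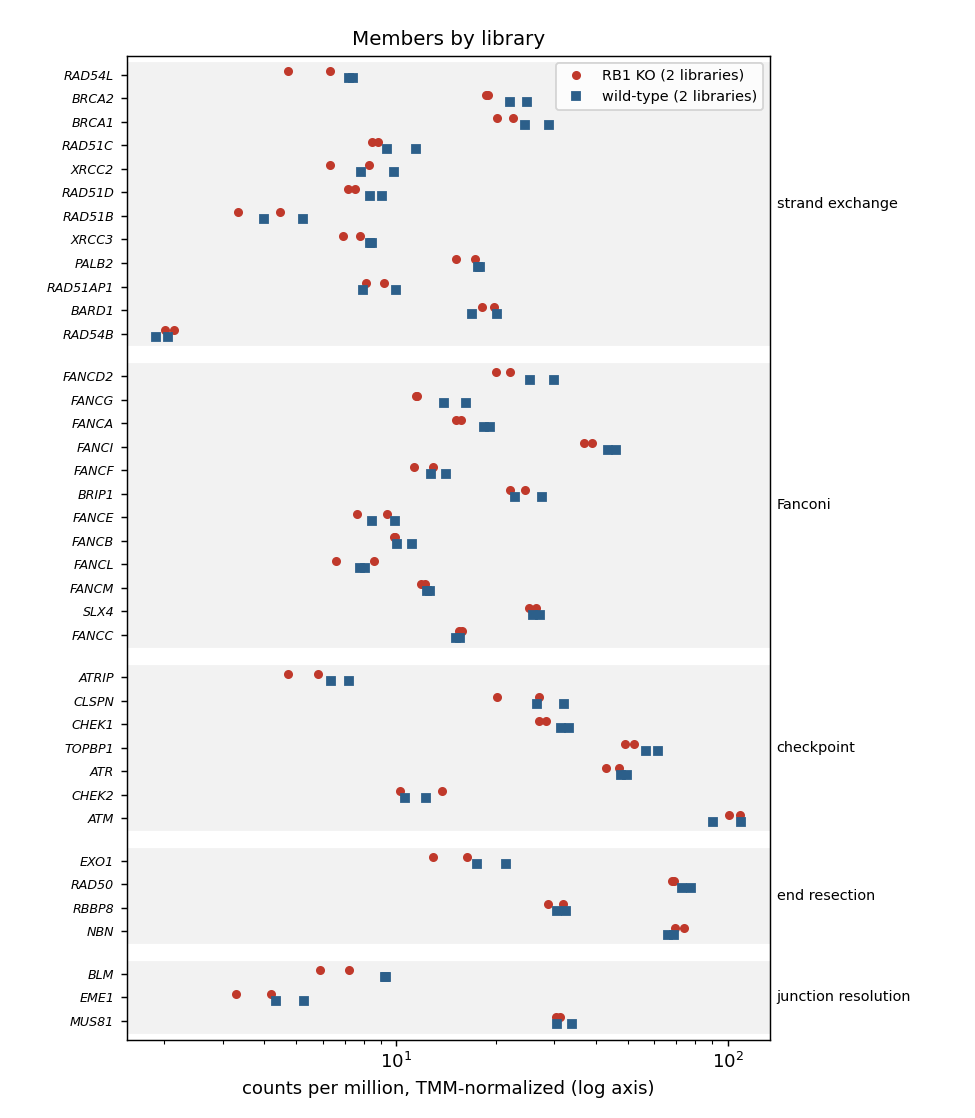
TMM-normalized CPM of the 38 genes (log axis) in each library, grouped by role and, within a role, ordered by log2 fold change. Circles are the 2 RB1 KO libraries and squares the 2 wild-type libraries. In 21 genes both circles lie left of both squares.

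Among the strand exchange genes, BRCA2, which prepares single-stranded DNA for strand exchange, had 18.6 and 18.9 CPM in RB1 KO cells, against 24.9 and 22.1 CPM in wild-type cells. The groups did not overlap, and the log2 fold change was -0.33 (standard error 0.0987, 95% interval -0.55 to -0.10, unadjusted p = 0.0111, adjusted p = 0.177 from edgeR). BRCA2 (ENSG00000139618.10) lies at chr13:32889223-32974405 in GRCh37. BRCA1, which with its partner BARD1 forms a ubiquitin ligase that promotes resection and loading, had 20.2 and 22.6 CPM in RB1 KO cells and 28.8 and 24.5 CPM in wild-type cells. Here too the groups were separate, and the log2 fold change was -0.32 (95% interval -0.57 to -0.06, adjusted p = 0.229 from edgeR). For BARD1 the interval overlapped that of its partner, and the difference between them was not tested. BARD1 had 18.2 and 19.8 CPM in RB1 KO cells, within the 20.2 and 16.9 CPM of wild-type cells, and a log2 fold change of 0.03 (95% interval -0.24 to 0.30), which was -0.03 with library totals and -0.43 with spike-in factors and also turned negative without RB1 KO replicate 2 or wild-type replicate 2. PALB2, which bridges BRCA1 and BRCA2, had 17.4 and 15.2 CPM in RB1 KO cells, against 17.9 and 17.7 CPM in wild-type cells. This was a log2 fold change of -0.13, with a gap between the groups smaller than that between the RB1 KO replicates.

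RAD54L, a motor protein that helps the strand invade the matching duplex, had 4.72 and 6.31 CPM in RB1 KO cells, against 7.42 and 7.20 CPM in wild-type cells. At -0.41, RAD54L had the lowest log2 fold change of the strand exchange genes (95% interval -0.80 to -0.01, adjusted p = 0.315 from edgeR). The related RAD54B had only 2.13 and 2.01 CPM in RB1 KO cells, against 2.04 and 1.89 CPM in wild-type cells, and a log2 fold change of 0.08, or -0.39 with spike-in factors, with the groups overlapping. RAD51AP1, which stimulates strand exchange, had 8.10 and 9.16 CPM in RB1 KO cells and 9.97 and 7.95 CPM in wild-type cells, with a log2 fold change of -0.06. RAD51B, RAD51C, RAD51D, XRCC2 and XRCC3, which work together in complexes that assist strand exchange, had log2 fold changes from -0.27 to -0.19 and none reached an unadjusted p under 0.05. RAD51C was at 8.43 and 8.80 CPM in RB1 KO cells, against 11.4 and 9.37 CPM in wild-type cells, a log2 fold change of -0.27 (95% interval -0.60 to 0.05, adjusted p = 0.409 from edgeR). RAD51D and XRCC3 had separate groups as well, with log2 fold changes of -0.24 and -0.19. RAD51B and XRCC2 overlapped, with log2 fold changes of -0.24 and -0.27 and intervals from -0.74 to 0.26 and from -0.68 to 0.14. In sum, 7 of 12 strand exchange genes (58.3%, against 24.3% of all genes) lay lower in both RB1 KO libraries. Of these, 3 were at an unadjusted p under 0.05 with edgeR (25% of the 12, against 7.16% of all genes). DESeq2 gave 2 of the 12 lower at that threshold. A positive log2 fold change was found in 2 of the 12.

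**Figure D2:**
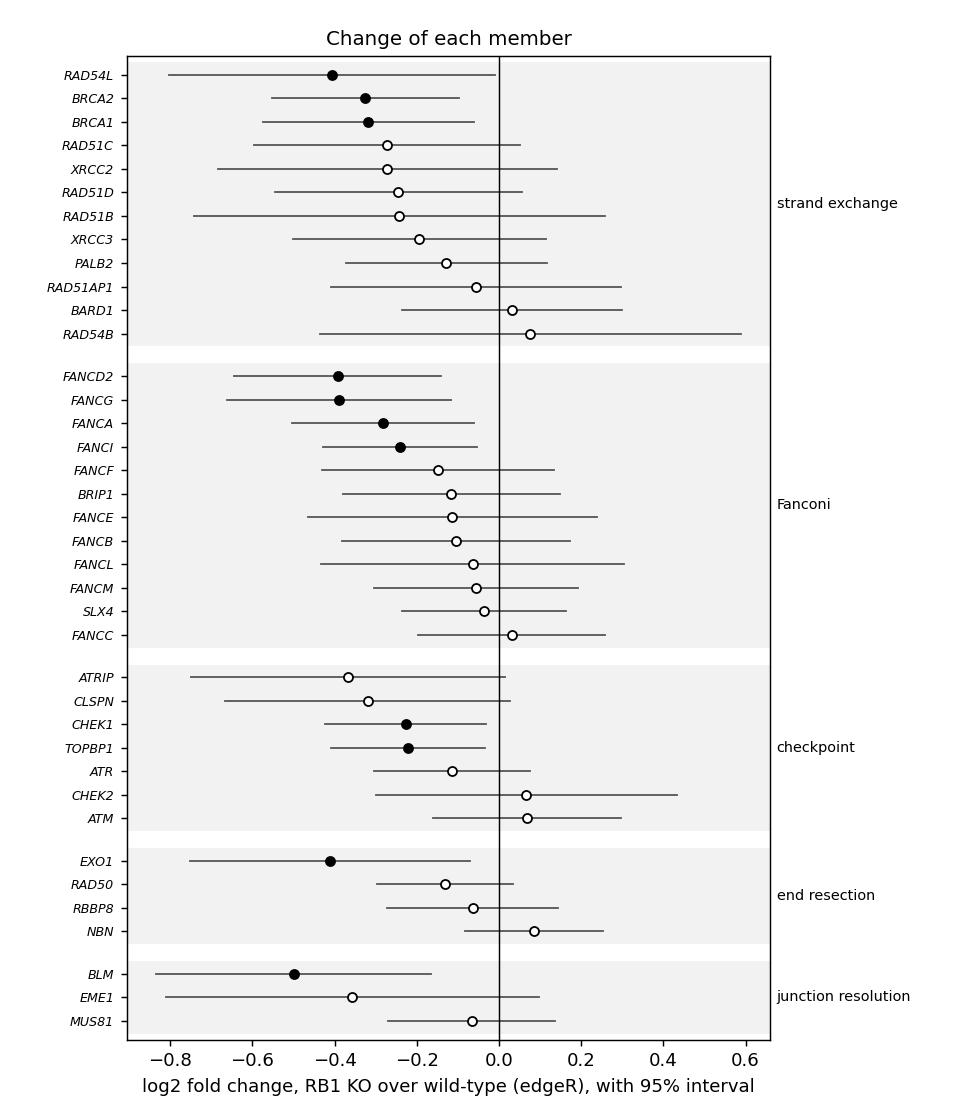
Log2 fold change of RB1 KO over wild-type cells for each gene (edgeR), with the 95% interval as a line. Filled points mark the 11 genes at an unadjusted p under 0.05, all of them negative. None passed after adjustment over all genes.

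Of the Fanconi genes, FANCD2 and FANCI are the pair that receives ubiquitin when a crosslink is met. FANCD2 had 20.1 and 22.1 CPM in RB1 KO cells, against 29.9 and 25.4 CPM in wild-type cells. The groups were separate, and its log2 fold change of -0.39 had the smallest p of all 38 genes (standard error 0.109, 95% interval -0.64 to -0.14, unadjusted p = 0.00713, adjusted p = 0.144 from edgeR). FANCD2 (ENSG00000144554.6) lies at chr3:10068054-10143616 in GRCh37. FANCI, the most abundant Fanconi gene per length, had 36.9 and 39.0 CPM in RB1 KO cells and 46.1 and 43.5 CPM in wild-type cells. At -0.24, FANCI had a smaller log2 fold change than its partner, but with 95% intervals of -0.43 to -0.05 for FANCI and -0.64 to -0.14 for FANCD2 the 2 values lay within each other's range.

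The other Fanconi genes first named belong to the core complex, a ubiquitin ligase assembled from many subunits. FANCG had 11.5 CPM in each RB1 KO library, against 16.3 and 13.9 CPM in wild-type cells, a log2 fold change of -0.39 (95% interval -0.66 to -0.12, adjusted p = 0.176 from edgeR). FANCA, which binds FANCG, had 15.7 and 15.2 CPM in RB1 KO cells, against 19.2 and 18.4 CPM in wild-type cells, a log2 fold change of -0.28 (95% interval -0.50 to -0.06, adjusted p = 0.217 from edgeR). The groups were separate in both genes. In the catalytic part of the complex, FANCL, the ligase subunit, and FANCB had log2 fold changes of -0.06 and -0.11. FANCC and FANCE, which bind each other, had 0.03 and -0.11, and FANCF, an adaptor, had -0.15. FANCC was nearly level, with 15.5 and 15.8 CPM in RB1 KO cells, against 15.1 and 15.6 CPM in wild-type cells, and an interval from -0.20 to 0.26, its value being -0.04 with library totals and -0.45 with spike-in factors. FANCM, a translocase that brings the complex to DNA, had 12.2 and 11.9 CPM in RB1 KO cells, against 12.7 and 12.4 CPM in wild-type cells, a log2 fold change of -0.06.

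Downstream of the core complex, the helicase BRIP1, also known as FANCJ, had 22.0 and 24.4 CPM in RB1 KO cells and 27.5 and 22.9 CPM in wild-type cells. Its groups overlapped, with a log2 fold change of -0.12 (95% interval -0.38 to 0.15). SLX4, a scaffold for nucleases, had 25.2 and 26.4 CPM in RB1 KO cells, against 27.1 and 25.8 CPM in wild-type cells, a log2 fold change of -0.04. Of the 12 Fanconi genes 6 had separate groups, all lower in RB1 KO cells (50%, against 24.3% of all genes). Of these, 4, FANCD2, FANCG, FANCI and FANCA, were at an unadjusted p under 0.05 with edgeR. This was 33.3% of the 12, against 7.16% of all genes. DESeq2 gave 2 of the 12 lower at that threshold. Apart from the 4 named, the other 8 had log2 fold changes between -0.15 and 0.03.

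Among the checkpoint genes, those of the ATR branch are given first and those of the ATM branch after them. CHEK1, the effector kinase of ATR, had 26.9 and 28.4 CPM in RB1 KO cells, against 31.5 and 33.2 CPM in wild-type cells. The groups were separate, with a log2 fold change of -0.23 (standard error 0.0846, 95% interval -0.42 to -0.03, unadjusted p = 0.0279, adjusted p = 0.259 from edgeR). TOPBP1, an activator of ATR, had 49.1 and 52.3 CPM in RB1 KO cells, against 61.6 and 56.6 CPM in wild-type cells, a log2 fold change of -0.22 (95% interval -0.41 to -0.04, adjusted p = 0.247 from edgeR). ATRIP, the partner that recruits ATR to single-stranded DNA, had 4.72 and 5.80 CPM in RB1 KO cells, against 7.21 and 6.35 CPM in wild-type cells. This log2 fold change of -0.37 came with a wide interval, from -0.75 to 0.02 (adjusted p = 0.345 from edgeR). CLSPN, the adaptor through which ATR activates CHEK1, had 20.1 and 27.0 CPM in RB1 KO cells and 32.2 and 26.6 CPM in wild-type cells. RB1 KO replicate 2 lay just above wild-type replicate 2, so the groups overlapped, and the log2 fold change of -0.32 had an interval from -0.67 to 0.03. The kinase ATR itself had 46.9 and 43.0 CPM in RB1 KO cells, against 49.7 and 47.6 CPM in wild-type cells, a log2 fold change of -0.11.

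ATM, the break-sensing kinase, had 109 and 101 CPM in RB1 KO cells, against 90.5 and 110 CPM in wild-type cells. Wild-type replicate 1 was the lowest of the 4 libraries and wild-type replicate 2 the highest, and the log2 fold change was 0.07 (95% interval -0.16 to 0.30). CHEK2, the effector kinase of ATM, had 13.7 and 10.3 CPM in RB1 KO cells, which enclosed the 10.7 and 12.3 CPM of wild-type cells, and a log2 fold change of 0.07 (95% interval -0.30 to 0.43). Both values are near 0 and not called, and they turned negative with spike-in factors (-0.43 for ATM and -0.42 for CHEK2) and without wild-type replicate 1, and CHEK2 also without RB1 KO replicate 1. All 5 genes of the ATR branch thus had negative values and both genes of the ATM branch values just above 0. The difference between the branches was not tested, and the intervals of all 5 genes overlap those of ATM and CHEK2.

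In end resection, EXO1, a nuclease that extends the cut made at a break, had 12.9 and 16.4 CPM in RB1 KO cells, against 21.4 and 17.5 CPM in wild-type cells. The groups were separate, with a log2 fold change of -0.41 (standard error 0.148, 95% interval -0.75 to -0.07, unadjusted p = 0.024, adjusted p = 0.242 from edgeR). RAD50 and NBN, partners of MRE11 in the complex that starts resection, took opposite signs. RAD50 had 69.0 and 68.1 CPM in RB1 KO cells, against 72.7 and 77.6 CPM in wild-type cells, a log2 fold change of -0.13 (95% interval -0.30 to 0.03). NBN had 74.0 and 69.4 CPM in RB1 KO cells, against 66.3 and 68.7 CPM in wild-type cells, a log2 fold change of 0.09 (95% interval -0.08 to 0.25), which was -0.40 with spike-in factors. RBBP8, the cofactor also known as CtIP, had 28.8 and 31.8 CPM in RB1 KO cells and 32.7 and 30.7 CPM in wild-type cells, overlapping, with a log2 fold change of -0.06. The standard errors of 0.0717 for RAD50 and 0.0728 for NBN are the smallest of the set. Their intervals, under TMM scaling, still run from -18.65 to 2.32% for RAD50 and from -5.53 to 19.27% for NBN. With spike-in factors the log2 fold change of RAD50 was -0.62.

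In junction resolution, BLM, a helicase that dissolves crossed DNA strands, had the lowest log2 fold change of all 38 genes. It was at 5.91 and 7.21 CPM in RB1 KO cells, against 9.31 and 9.24 CPM in wild-type cells. The groups were separate, and the log2 fold change was -0.50 (standard error 0.145, 95% interval -0.83 to -0.17, unadjusted p = 0.00881, adjusted p = 0.158 from edgeR). BLM (ENSG00000197299.6) lies at chr15:91260577-91359396 in GRCh37. EME1, the regulatory partner of the nuclease MUS81, had 3.29 and 4.21 CPM in RB1 KO cells, against 5.26 and 4.34 CPM in wild-type cells, a log2 fold change of -0.36 with an interval from -0.81 to 0.10. MUS81 itself had 30.5 and 31.2 CPM in RB1 KO cells and 33.9 and 30.6 CPM in wild-type cells, a log2 fold change of -0.07 with overlapping groups.

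Set side by side, the median log2 fold change was -0.24 for strand exchange, -0.11 for Fanconi and -0.22 for checkpoint genes. It was -0.10 for resection and -0.36 for resolution, each from few genes. The ranges of the roles overlapped, from -0.41 to 0.08 for strand exchange, from -0.39 to 0.03 for Fanconi and from -0.37 to 0.07 for checkpoint genes, and the roles were not tested against each other. The strand exchange genes summed to 123 and 130 CPM in RB1 KO cells, against 154 and 138 CPM in wild-type cells. The Fanconi genes summed to 198 and 204 CPM in RB1 KO cells, against 236 and 218 CPM in wild-type cells. The checkpoint sum, 270 and 268 CPM in RB1 KO cells against 283 and 293 CPM in wild-type cells, holds 109 and 101 CPM of ATM in RB1 KO cells and 90.5 and 110 CPM of ATM in wild-type cells. In each of these 3 sums both RB1 KO libraries were below both wild-type libraries. Compared per length, as CPM per kilobase of the canonical transcript, levels averaged over both genotypes ran from 0.657 for RAD54B and 0.804 for RAD51D to 13.3 for MUS81 and 15.1 for NBN. The checkpoint kinases ATM, CHEK1, CHEK2 and ATR lay at 7.94, 7.27, 6.37 and 5.74 CPM per kilobase. BRCA1 and BRCA2 were at 3.39 and 1.77 CPM per kilobase. Genes that also use a shorter transcript are placed too low on this scale.

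Replicates of the same genotype also differed from each other in many of the 38 genes. Wild-type replicate 1 was above wild-type replicate 2 in 29 of 38 genes (76.3%), and RB1 KO replicate 2 above RB1 KO replicate 1 in 26 (68.4%), against 49.8% of all genes tested for each. Both held in 23 genes (60.5%), against 31.3% of all genes. XRCC2, which had 6.33 and 8.29 CPM in RB1 KO cells and 9.82 and 7.83 CPM in wild-type cells, shows the pattern. Genes of the cell cycle had the same order of libraries. All 31 G1/S genes tested had values below 0 (against 51.7% of all genes), at a median log2 fold change of -0.33, and 0 were called (edgeR). At an unadjusted p under 0.05, 23 were lower (74.2%, against 7.16% of all genes), and DESeq2 called 3 lower. Of 30 genes of G2 and mitosis 30 were negative, with a median of -0.37, and 8 were called lower, against 0.907% of all genes. At an unadjusted p under 0.05, 22 were lower (73.3%, against 7.16% of all genes). Without wild-type replicate 1 the medians were -0.19 for G1/S and -0.25 for G2 and mitosis, and without RB1 KO replicate 2 they were -0.42 and -0.48. Without wild-type replicate 2 they were -0.43 and -0.48, and without RB1 KO replicate 1 they were -0.23 and -0.27. Among the settings planned in advance that kept all 4 libraries, the calls in G2 and mitosis also changed. The genes of the whole table called lower changed too and are given here in parentheses. There were 13 with DESeq2 (160), 15 with library totals (326) and 3 with no filter (90). There were 2 at an adjusted p under 0.05 (65), 1 with the replicate block (74) and 0 with spike-in factors (168). In G1/S, 7 were called lower with library totals (326). The G2 and mitosis genes summed to 1761 and 1989 CPM in RB1 KO cells, against 2558 and 2229 CPM in wild-type cells, and the G1/S genes to 930 and 1037 CPM, against 1312 and 1119 CPM. In both lists wild-type replicate 1 was the highest library and RB1 KO replicate 1 the lowest, as in the 38 genes. In bulk RNA, fewer cells in a phase and less RNA per cell cannot be told apart, and the part of the cell cycle genes in the lower values of the 38 genes was not tested. For its UV experiment, the paper describes the phase shares of both genotypes at confluence, measured by FACS, as comparable. Whether the RNA came from the same cultures is not stated.

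**Figure D3:**
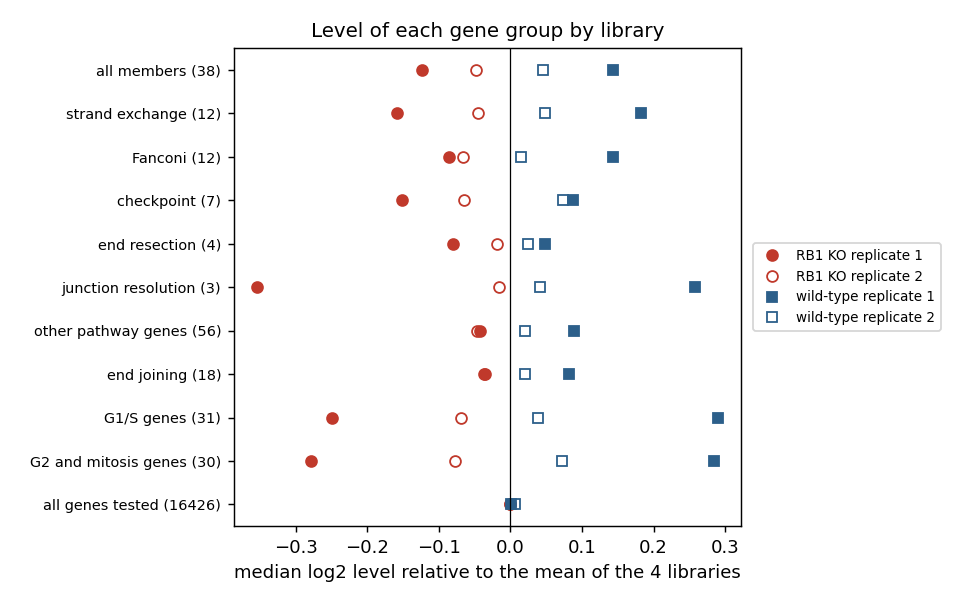
Median log2 level of each gene group in each library, relative to the mean of the 4 libraries for each gene, with the number of genes in parentheses. Filled symbols are replicate 1 and open symbols replicate 2. For the 38 genes together the medians are -0.12 and -0.05 in the RB1 KO libraries (replicate 1, then 2) and 0.14 and 0.04 in the wild-type libraries, the same order as for G1/S and G2 and mitosis genes but over a narrower range.

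Single libraries decided how many of the genes were called. Without RB1 KO replicate 2, edgeR called 6 lower, namely BRCA1 (-0.40), RAD54L (-0.63), FANCD2 (-0.46), CLSPN (-0.54), EXO1 (-0.59) and BLM (-0.65). Without wild-type replicate 2 it called FANCD2 (-0.51) and EXO1 (-0.55), and without RB1 KO replicate 1 or wild-type replicate 1 it called 0. Without wild-type replicate 1 the medians were -0.14 for strand exchange, -0.03 for Fanconi and -0.15 for checkpoint genes. The median of the 38 genes was then -0.13, and 29 were negative, against 8600 of 17173 genes tested in that fit. With library totals as the only scaling, 1 gene passed, FANCD2 (-0.46, adjusted p = 0.0878 from edgeR).

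**Figure D4:**
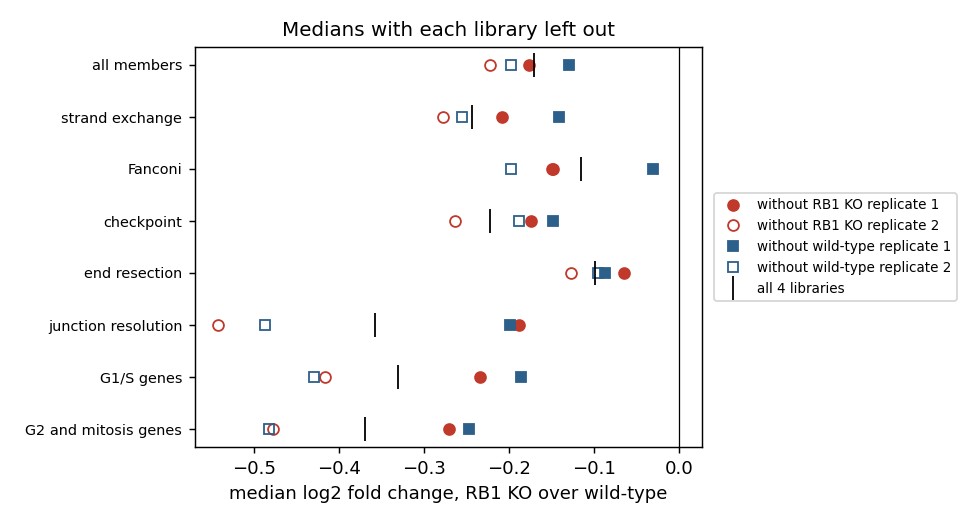
Median log2 fold change of each gene group with each library left out in turn, and with all 4 libraries (bars). All medians stay below 0, and those without wild-type replicate 1 (filled squares) lie nearest to 0 for most groups, at -0.03 for the Fanconi genes.

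Other genes of the same pathways were counted beside the 38, with no test between the lists. Of 56 further genes, all tested, 0 were called higher and 0 lower by edgeR, DESeq2 or limma-voom, 6 were lower at an unadjusted p under 0.05 (10.7%, against 7.16% of all genes) and 47 were negative (83.9%, against 51.7% of all genes). DESeq2 gave 3 lower at that unadjusted p. The median log2 fold change of the 56 genes was -0.10. The 4 with the smallest p were DNA2, a nuclease of long resection (-0.45, adjusted p = 0.126 from edgeR), TIMELESS, a fork protection factor (-0.29, adjusted p = 0.186), MDC1, a scaffold at breaks (-0.26, adjusted p = 0.197), and UBE2T, the ubiquitin-conjugating enzyme of the Fanconi pathway (-0.41, adjusted p = 0.261). DNA2 had 9.92 and 9.01 CPM in RB1 KO cells, against 13.4 and 12.6 CPM in wild-type cells. With a library left out, the median of the 56 ran from -0.145 (without wild-type replicate 2) to -0.0478 (without wild-type replicate 1).
End joining, which seals breaks without a template, served as a neighbouring pathway. Of its 19 genes 18 were tested, and 0 were called by edgeR, DESeq2 or limma-voom. With edgeR 4 were lower at an unadjusted p under 0.05 (22.2%, against 7.16% of all genes), and with DESeq2 0. The median was -0.10. The 4 with the smallest p were LIG3 (-0.26), POLQ (-0.33), XRCC6 (-0.16) and PARP1 (-0.17), with adjusted p from 0.22 to 0.323 (edgeR). The end joining median ran from -0.146 without wild-type replicate 2 to -0.0611 without wild-type replicate 1. The 38 genes and the end joining genes were not tested against each other.

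The promoter matches shown first can be set beside these values. Over the 7 genes with an E2F-type match the median log2 fold change was -0.28, and over the other 28 genes with a window it was -0.13. FANCD2 and EXO1 are among the lowest of the set, and FANCA, XRCC2, CLSPN and TOPBP1 also had values from -0.32 to -0.22, while FANCC, with 1 match in the printed window and another farther from the start, had 0.03. BLM, FANCG and BRCA2 had no match of these letters in their windows and yet log2 fold changes of -0.50, -0.39 and -0.33. The 3 genes with a CHR match, FANCC, BRIP1 and ATM, had 0.03, -0.12 and 0.07.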

How the data were processed

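RNA of confluent IMR-90 cells was depleted of ribosomal RNA and sequenced as paired-end directional libraries. Per the paper's methods, the authors used STAR for alignment on GRCh37 (the submitters' processing notes name version 2.7.2b), and the deposited values are raw counts of uniquely mapped reads per gene, with no normalization. Reads shared with near-identical copies are thus lost from these counts. Symbols came from a reference list of gene names, which matched 55538 of 57820 gene IDs, and GRCh37 positions from GENCODE v44lift37. The 4 summary lines and the ERCC and SIRV spike-ins were left out of library sizes. Samples were grouped by the genotype in the labels, 2 per genotype.

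Genes were filtered with filterByExpr (minimum count 10, minimum total 15), scaled by TMM and tested with edgeR 4.0.16 (quasi-likelihood, R 4.3.3), with Benjamini-Hochberg adjustment over 16426 genes and a threshold of 0.1, as in the study. Intervals (95%) are of the fitted log2 fold change, unadjusted. CPM values are TMM-normalized. The steps were tested on simulated data. Alternatives were DESeq2 1.42.0, limma-voom (limma 3.58.1), other scalings and filters, a replicate block and leaving out each library. The genes and lists were chosen with earlier results of these data known. All 38 genes are named, those with the 4 smallest p of each role in full, and the 4 with the smallest p of the other pathway and end joining lists. Some items are not reported here.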

Additional observations from a re-analysis of the deposited data

Results flagged for a closer look

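Spike-in RNAs, which are used above only as an alternative scaling, were present in every library although the labels give no use for them. The ERCC RNAs amounted to 0.207 and 0.21% of the gene counts in RB1 KO replicates 1 and 2 and to 0.187 and 0.135% in wild-type replicates 1 and 2. The SIRV RNAs amounted to 0.213 and 0.21% in RB1 KO cells and to 0.188 and 0.135% in wild-type cells. Both sets thus had their lowest share in wild-type replicate 2.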

How the results depend on the processing

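Counts of the 38 genes were as low as 60 and standard errors as high as 0.222, and without a library the lone sample of a genotype is assumed to vary like the other genotype. The number of all genes called, 476, was 179 with ERCC factors (11 higher, 168 lower), 222 at an adjusted p under 0.05 and 255 to 1431 with a library left out (845 when RB1 KO replicate 1 was dropped, 1431 for RB1 KO replicate 2, 255 for wild-type replicate 1). Same-numbered libraries did not deviate together (correlation -0.2), and a fit with the replicate number as a block called 226 genes and 0 of the 38. A crossed block, added after seeing the data, called 2974 genes, 13 of them among the 38. The number of the 38 genes called, 0, was 1 with library totals (FANCD2, a Fanconi gene) and 0 to 6 with a library left out, or 0 to 2 for strand exchange, 0 to 1 for each of Fanconi, checkpoint, resection and resolution, 0 to 4 for other pathway genes and 0 to 1 for end joining. With library totals 1 of the other pathway genes was called lower, as were 326 of all genes. DESeq2, limma-voom, RLE factors, ERCC factors, an open filter, a minimum of 10 counts per library and an adjusted p under 0.05 gave 0 of the 38. The medians with library totals were -0.24 for the 38 genes, -0.18 for Fanconi, -0.29 for checkpoint and -0.17 for resection, where the median of all genes was -0.08. With ERCC factors they were -0.66 for the 38 genes, -0.72 for strand exchange, -0.57 for Fanconi, -0.69 for checkpoint, -0.58 for resection and -0.81 for resolution. With a library left out they ranged from -0.22 to -0.13, from -0.28 to -0.14 for strand exchange, from -0.20 to -0.0304 for Fanconi, from -0.26 to -0.15 for checkpoint, from -0.13 to -0.0652 for resection and from -0.54 to -0.19 for resolution. Signs turned with ERCC factors for RB1 (-0.36), BARD1 (-0.43), RAD54B (-0.39), FANCC (-0.45), ATM (-0.43), CHEK2 (-0.42) and NBN (-0.40), and with library totals for BARD1 (-0.0335) and FANCC (-0.0356). With a library left out they turned in BARD1 (-0.0897 to 0.18), RAD51AP1 (-0.21 to 0.13), FANCE (-0.27 to 0.029), FANCL (-0.27 to 0.12), BRIP1 (-0.24 to 0.0352), SLX4 (-0.0703 to 0.00875), ATM (-0.0543 to 0.21), CHEK2 (-0.15 to 0.26), RBBP8 (-0.13 to 0.00801) and MUS81 (-0.14 to 0.0213). Apart from the scalings, whose factors move all genes together, the cause was not tested. Of 507 values, for RB1 and the 38 genes under 13 alternatives without the crossed block, 475 kept their direction and side of the threshold, those at the stricter threshold coming from the same fit.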
